A study of Mus musculus with 2 samples.

Results

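Mir221 and Mir222 are neighbouring microRNA (miRNA) genes on the mouse X chromosome whose mature products carry the same seed, the short stretch by which a miRNA pairs with its target mRNAs. They were taken from 2202 annotated miRNA genes as the 2 genes that GENCODE M21 names Mir221 and Mir222. They were chosen by position and seed and by their read counts in both libraries, which differ strongly between the 2 libraries, so that difference is described here and not tested. Small RNA was sequenced from hippocampus of wild-type C57BL/6 mice (strain B6NCrl, adult, 6 months old, described as male although the sex field reads as not collected). The tissue field reads layer of hippocampus and names no layer. The libraries are biological replicates 2 and 1 of 1 group, with no second condition. Both carry the same donor identifier, and nothing in the labels says whether separate animals were used. An SD over the 2 libraries may therefore measure technical spread alone.

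A miRNA is cut from a hairpin in a longer primary transcript, and 1 arm of the hairpin is loaded into an Argonaute protein and guides it to mRNAs that match the seed, lowering their translation and stability. miR-221 and miR-222 are best known as repressors of Cdkn1b, an inhibitor of the cell cycle, in human tumour cell lines including glioblastoma, and of the receptor Kit in human endothelial and erythroid cells. They are abundant in endothelium and vascular smooth muscle and have also been studied in neurons and glia. In bulk tissue, fewer cells of a type and less RNA per cell cannot be told apart.

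The sequences show what the members share and where they part. The mature 3p arms of RefSeq (build GRCm38.p6) are given 5′ to 3′ with the seed, bases 2 to 8, in capitals, together with the only other mouse miRNA of that table with this seed.
miR-221-3p: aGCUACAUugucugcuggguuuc
miR-222-3p: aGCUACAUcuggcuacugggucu
miR-1928: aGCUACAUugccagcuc
Both 3p arms are 23 bases long. They are identical over their first 8 bases and at 11 of 23 positions when set side by side without gaps, so the seed is common and most of the rest is not. Levels are given as CPM (counts scaled to the library's total on miRNA genes) and are not divided by length. The counts do not separate the arms, and miR-221-5p is listed at 26 bases, so levels of Mir221 and Mir222 are set side by side as counts per hairpin.

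The hairpins are shown because the counts are per hairpin and do not separate the arms. Capitals mark the 3p arm, which lies on the 3′ side in both.
Mir221: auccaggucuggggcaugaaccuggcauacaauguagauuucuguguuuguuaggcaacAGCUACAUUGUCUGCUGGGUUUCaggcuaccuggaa
Mir222: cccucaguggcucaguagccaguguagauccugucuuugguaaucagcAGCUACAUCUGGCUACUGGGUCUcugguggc
The longest stretch shared by the hairpins is 9 bases. None of the other annotated hairpins of the RefSeq table, which holds 1005 in all, shares a 20-base stretch with either. In a search of 141767 M21 transcripts on both strands, the 3p sequence of Mir221 and that of Mir222 were each found in no other gene. Reads that aligned to several places entered no gene's count, and whether either member lost reads in this way was not tested. The transcript search was for the 3p sequences alone, so it does not cover the other arm of either hairpin or shorter matches. Sequence outside annotated transcripts was not searched.

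Mir221 (ENSMUSG00000065422.1) lies at chrX:19146294-19146388 and Mir222 (ENSMUSG00000065471.1) at chrX:19146893-19146971, both on the minus strand of mm10 and 504 bases apart. Mir222 is therefore the upstream gene in the direction of transcription. M21 annotates 0 genes over either hairpin, so the position is intergenic and no host transcript is named. The nearest annotated gene at higher coordinates is Gm14636, a processed transcript on the same strand 10009 bases away. At lower coordinates it is the pseudogene Gm5383, 203 kb away. The nearest miRNA genes, Gm24824 (1677 kb) and Gm22464 (3438 kb), had 0 counts in both libraries. No reads were counted on the opposite strand of either member, and the counts without regard to strand equalled those on the strand of the gene.

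Both members were well expressed, and both were lower in replicate 2 than in replicate 1. Mir221 had 33030 counts in replicate 2 and 55724 in replicate 1, or 6552 and 13121 CPM. It stood at rank 32 in replicate 2 and at rank 15 in replicate 1 of the 2202 genes, where ranks cover only reads aligned to 1 place. Mir222 had 5870 counts in replicate 2 and 21013 in replicate 1, or 1164 and 4948 CPM. It stood at rank 88 in replicate 2 and at rank 39 in replicate 1. The order of the members was the same in each library, with Mir221 above Mir222, and the Mir222 level of replicate 1 stayed below the Mir221 level of replicate 2.

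Over both libraries the level of Mir221 was 9836 ± 4645 CPM and that of Mir222 was 3056 ± 2675 CPM (SD, n = 2). The SD came to 47.2% of the mean for Mir221 and to 87.5% for Mir222. Of the 276 genes that averaged at least 100 counts per library, 5 had a larger SD in proportion to their mean than Mir222, and 28 a larger one than Mir221. With 2 libraries this order follows from the fold between them, for which the members were chosen. Counting error was small against this spread. The exact 95% binomial interval of Mir221 was 6481 to 6622 CPM in replicate 2 against 13013 to 13229 CPM in replicate 1. That of Mir222 was 1135 to 1194 CPM in replicate 2 against 4881 to 5015 CPM in replicate 1. No molecular identifiers are named in the labels, so PCR copies stay in the counts and these intervals speak of counting error alone.

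**Figure D1:**
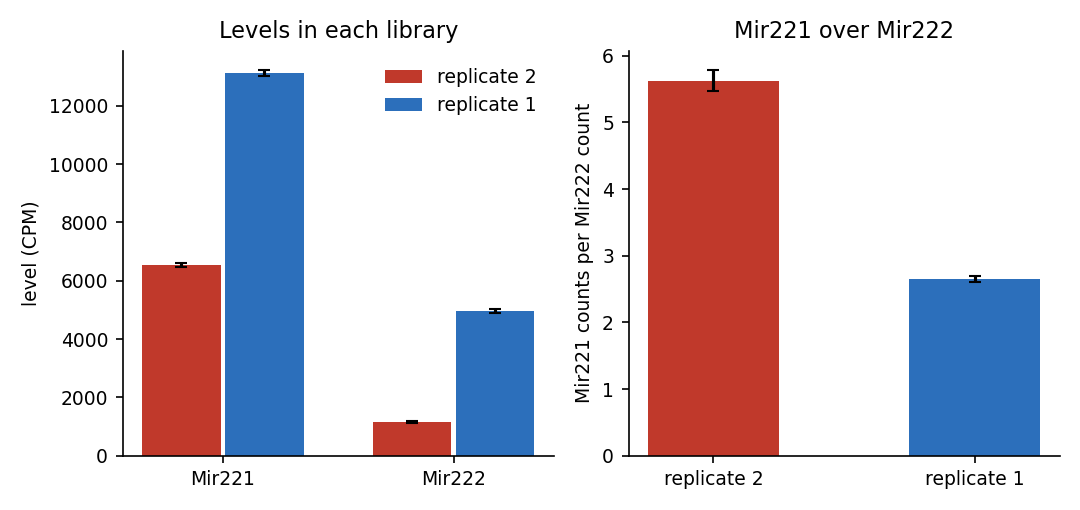
Left, levels of Mir221 and Mir222 in CPM in replicate 2 (red) and replicate 1 (blue). Right, Mir221 counts per Mir222 count in each library. Bars are single libraries, and error bars are exact 95% binomial intervals of counting error. Both genes stand lower in replicate 2, and the ratio stands at 5.63 in replicate 2 and 2.65 in replicate 1.

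On the log2 scale Mir221 differed by −1.002 (replicate 2 over replicate 1, exact 95% interval −1.02 to −0.98), so its level in replicate 2 was 49.9% of that in replicate 1. Mir222 differed by −2.09 (−2.13 to −2.05), a level of 23.5% of that in replicate 1. Mir222 thus lay past 4-fold, whereas the interval of Mir221 spans 2-fold and its place just past that line rests on the scaling (−0.94 with all reads as denominator). Together the pair held 0.772% of the counts on miRNA genes in replicate 2, with an exact 95% interval of 0.764 to 0.779%, and 1.81% in replicate 1 (1.79 to 1.82%). The summed log2 ratio was −1.23 (−1.25 to −1.21).

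Of these 276 genes, 10.5% lay past 2-fold in either direction, 15 of them (5.43%) lower and 14 (5.07%) higher in replicate 2. Both members are among the 15, which follows from how they were chosen. The median log2 ratio of the 276 genes was 0.03, and their quartiles were −0.32 and 0.39. Mir222 had the fourth lowest ratio (rank 4 from the bottom) and Mir221 rank 15. Of the 49 genes with a mean level at or above that of Mir222, 4 lay past 2-fold lower and 1 past 2-fold higher in replicate 2. Besides the members these were Mir204 (log2 ratio −1.35), Mir132 (−1.13) and Mir99b (1.75), which are named here after their values were seen.

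**Figure D2:**
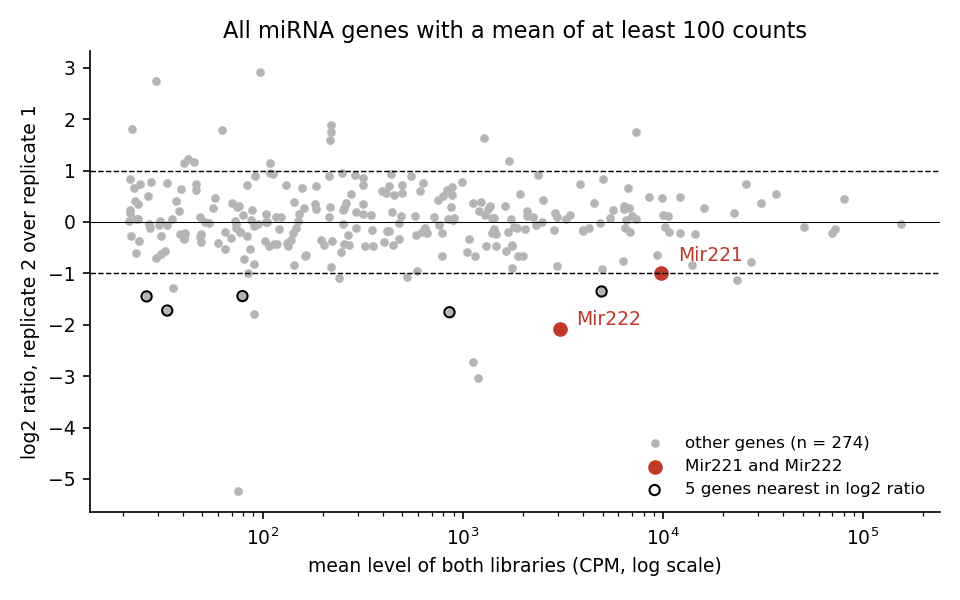
Log2 ratio of replicate 2 over replicate 1 against the mean level in CPM (log scale) for the 276 miRNA genes that averaged at least 100 counts. Red points are Mir221 and Mir222, and grey points the other genes. Open circles mark the 5 genes with a log2 ratio nearest to −1.54, the mean of the 2 members. Dashed lines mark 2-fold. Mir222 lies at −2.09 and Mir221 at −1.002, on the lower line.

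The members did not differ by the same amount. Mir221 had 5.63 counts for each count of Mir222 in replicate 2, with an exact 95% interval of 5.47 to 5.79, and 2.65 in replicate 1 (2.61 to 2.69). Mir221 made up 84.9% of the pair in replicate 2 and 72.6% in replicate 1. The ratio within the pair was thus 2.12 times as high in replicate 2, a shift of 1.09 on the log2 scale. On that scale Mir221 over Mir222 averaged 1.95 ± 0.77 (SD, n = 2). This shift does not depend on how the libraries are scaled, because both genes of a library share the same total.

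Other neighbours give a measure of how far adjacent miRNA genes moved apart. There were 66 other pairs of adjacent miRNA genes on 1 strand, at most 10 kb apart and not overlapping, in which both genes had a mean of at least 100 counts. Pairs in a chain share genes, so the pairs are not independent. The gap between the log2 ratios of the 2 genes had a median of 0.38 and ranged from 0.01 to 1.77. The gap of Mir222 and Mir221, 1.09, was the ninth widest (rank 9 of 67), with 8 other pairs wider. In 35 of the 66 other pairs, both genes had a ratio of the same sign. Of all 276 genes, 129 had a ratio below 0, so many unrelated pairs would also share a sign. The count was not tested. In 2 of the 67 pairs, both genes lay past 2-fold lower in replicate 2, and in 0 pairs both lay past 2-fold higher (5.43% and 5.07% of all 276 genes taken singly). The first were Mir222 with Mir221, which the choice of members fixes, and Mir34b with Mir34c, miRNAs of ciliated cells, which was named after its values were seen. Mir34b differed by −1.80 and Mir34c by −2.73.

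The 5 other pairs with the highest levels show both kinds of behaviour. Mir127 and Mir434, imprinted neighbours on chromosome 12, differed by −0.10 and −0.11 with a gap of 0.01. Mir433 and Mir127 differed by 0.27 and −0.10. Mirlet7c-2 and Mirlet7b, of the let-7 family of developmental timing regulators, differed by 0.14 and 0.45. Mirlet7e and Mir125a differed by 0.36 and 0.73, whereas Mir99b and Mirlet7e of the same cluster differed by 1.75 and 0.36, a gap of 1.38 that is wider than that of Mir222 and Mir221. The Mir99b level was 11303 CPM in replicate 2 against 3370 CPM in replicate 1.

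**Figure D3:**
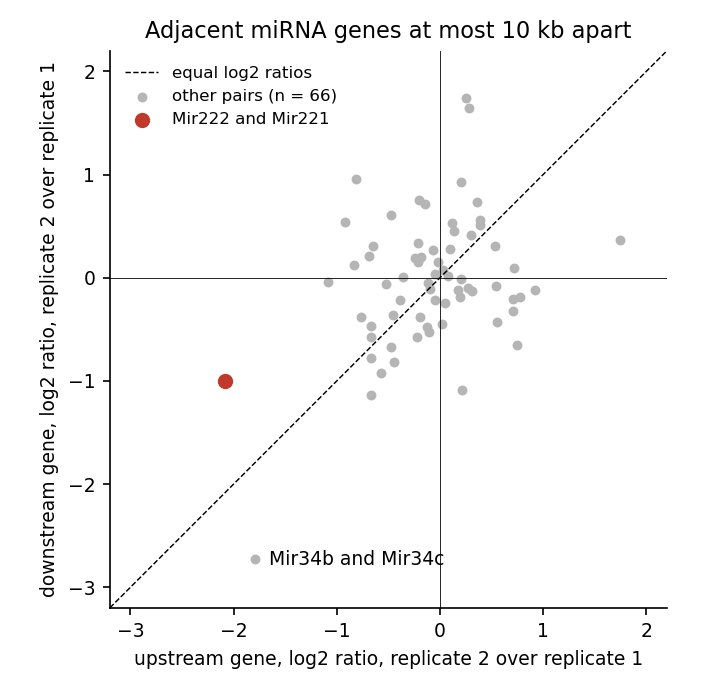
Log2 ratio of replicate 2 over replicate 1 of the upstream gene (horizontal) and the downstream gene (vertical) for 67 adjacent miRNA pairs at most 10 kb apart. The red point is Mir222 with Mir221, grey points are the 66 other pairs, and the dashed line marks equal ratios. Mir222 with Mir221 and Mir34b with Mir34c lie at the lower left, and Mir222 with Mir221 lies above the dashed line by 1.09.

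Genes that share the seed or the first bases with the members were looked up next. Mir1928, with the same seed, had 0 counts in both libraries, for which 3 counts set upper limits of 0.595 CPM (replicate 2) and 0.706 CPM (replicate 1). These limits cover only reads that aligned to 1 place. Outside the members, 13 genes have a mature sequence in the RefSeq table that starts with the same 4 bases, and 5 of them had a mean of at least 100 counts. They are shown 5′ to 3′ with those 4 bases in capitals, to set their starts beside those of the members.
miR-138-5p: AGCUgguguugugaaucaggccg
miR-423-3p: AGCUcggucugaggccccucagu
miR-107-5p: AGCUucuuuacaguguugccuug
miR-103-2-5p: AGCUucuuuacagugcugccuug
Mir138-1 and Mir138-2, which both give miR-138-5p, a miRNA of neurons, differed by 0.05 and 0.10. Their counts cover only reads that aligned to 1 place, and the same holds for other genes here that share a mature sequence between loci. Mir423 differed by 1.19, Mir107 by −0.86 and Mir103-2 by −0.62. The 5 ratios had a median of 0.05, 0 lay past 2-fold lower and 1 past 2-fold higher in replicate 2. Over all 276 genes the shares were 5.43% and 5.07%, and 5 genes are too few to set against them. For each of these genes the listed arm is 1 of the arms of the hairpin, and the counts do not say which arm was read.

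The genes most like the members were those with a log2 ratio nearest to −1.54, the mean of both members, over the 2 libraries. Mir203, best known from skin epithelium, differed by −1.45 (71 counts in replicate 2 and 164 in replicate 1). Mir206, a miRNA of skeletal muscle, differed by −1.44 (215 and 493 counts in replicates 2 and 1). Both have far fewer counts than the members, and the exact 95% interval of Mir203 was −1.88 to −1.05. Mir1264, which lies within Htr2c, a gene for a serotonin receptor, differed by −1.72 (78 and 218 counts). Mir204, in an intron of Trpm3 and abundant in choroid plexus, had 14017 counts in replicate 2 and 30162 in replicate 1, a difference of −1.35 (−1.38 to −1.32). Mir31 had 1977 counts in replicate 2 and 5630 in replicate 1, a difference of −1.76 (−1.83 to −1.68). With 2 libraries any gene that is lower in replicate 2 resembles the members to some degree, so this likeness is a description of 1 ratio.

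Cell type markers were set beside the members. In the vascular list, chosen because the pair is abundant in vessels, 3 of 5 genes had a mean of at least 100 counts, and 0 of them lay past 2-fold in either direction (10.5% over all 276 genes). Their median log2 ratio was −0.58, against 0.03 over all 276 genes. The endothelial gene Mir126a differed by 0.30, with 7027 CPM in replicate 2 against 5706 CPM in replicate 1. The smooth muscle genes Mir143 and Mir145a were at 1545 and 197 CPM in replicate 2 and at 2456 and 294 CPM in replicate 1 (differences of −0.67 and −0.58). Mir126b and Mir145b had 0 counts in both libraries. The summed list stood at 8769 CPM in replicate 2 against 8456 CPM in replicate 1. The part of vessels in the difference of Mir221 and Mir222 was not tested.

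Of the choroid plexus and ependyma list, 4 of 7 genes had a mean of at least 100 counts, and 3 of the 4 lay past 2-fold lower in replicate 2, beside 5.43% of all 276 genes. Mir34b and Mir34c, which are among the 3, are neighbours 451 bases apart, so the 3 are not independent. The median of the 4 was −1.57. The list summed to 3149 CPM in replicate 2 against 9225 CPM in replicate 1, a ratio of 0.341. Mir204 made up most of it, and Mir34c had 296 CPM in replicate 2 against 1959 CPM in replicate 1. Mir449a, of the same ciliated cells as Mir34b and Mir34c, went the other way (log2 ratio 0.66). Mir211 had 20 and 25 counts in replicates 2 and 1, Mir449c had 3 and 1, and Mir449b had 0 in both. Of 5 matched genes in introns of Htr2c, which is highly expressed in choroid plexus, 4 had a mean of at least 100 counts and 2 lay past 2-fold lower (5.43% over all 276 genes). Mir1298 differed by −3.03, with 259 CPM in replicate 2 against 2117 CPM in replicate 1, while Mir448 differed by −0.32 and Mir764 by 0.05. The lists were chosen with earlier results of these data known, so these counts and ratios are descriptions. Mir204 and Mir1264, which are on these lists, were also picked above by their log2 ratio. The part of these markers in the difference of Mir221 and Mir222 was not tested.

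The remaining lists had medians nearer to 0. Of the neuron-enriched genes, 15 of 18 had a mean of at least 100 counts, their median was −0.12, and 2 lay past 2-fold lower, beside 5.43% of all 276 genes. These were Mir132, an activity-regulated miRNA, which stood at 14605 CPM in replicate 2 against 32072 CPM in replicate 1, and Mir129-1 (−1.07). Mir139, the highest of the list by reads aligned to 1 place, had 153300 CPM in replicate 2 against 156599 CPM in replicate 1. The defining neuronal genes Mir124a-1, Mir124a-2 and Mir124a-3 share a mature sequence, and only reads that aligned to 1 place were counted. They had 8, 0 and 5 counts in replicate 2 and 6, 2 and 5 counts in replicate 1, which give no level of that miRNA. In the cell-cycle clusters, which like the pair are tied to proliferation, 7 of 15 genes had a mean of at least 100 counts. Of these, 0 lay past 2-fold (10.5% over all 276 genes in either direction), and the median was −0.05. Mir93 had 1292 CPM in replicate 2 against 1498 CPM in replicate 1, and Mir92-1 had 715 and 386 CPM. The oligodendrocyte list (2 of 4 genes, 0 past 2-fold, beside 10.5% of all 276 genes) had a median of 0.46. Mir219a-2 had 6444 CPM in replicate 2 against 3630 CPM in replicate 1. Mir338 had 2333 CPM in replicate 2 against 2175 CPM in replicate 1. Among microglia and leukocyte genes (3 of 6, 0 past 2-fold, beside 10.5% of all 276 genes) the list had a median of −0.13. It was led by Mir150 (1949 CPM in replicate 2 against 2138 CPM in replicate 1) and Mir146 (611 and 713 CPM). No erythroid gene had a mean of 100 counts. The 4 summed to 25.4 CPM in replicate 2 against 20.0 CPM in replicate 1, led by Mir486 (15.3 and 10.1 CPM) and Mir451a (6.94 and 8.71 CPM).

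**Figure D4:**
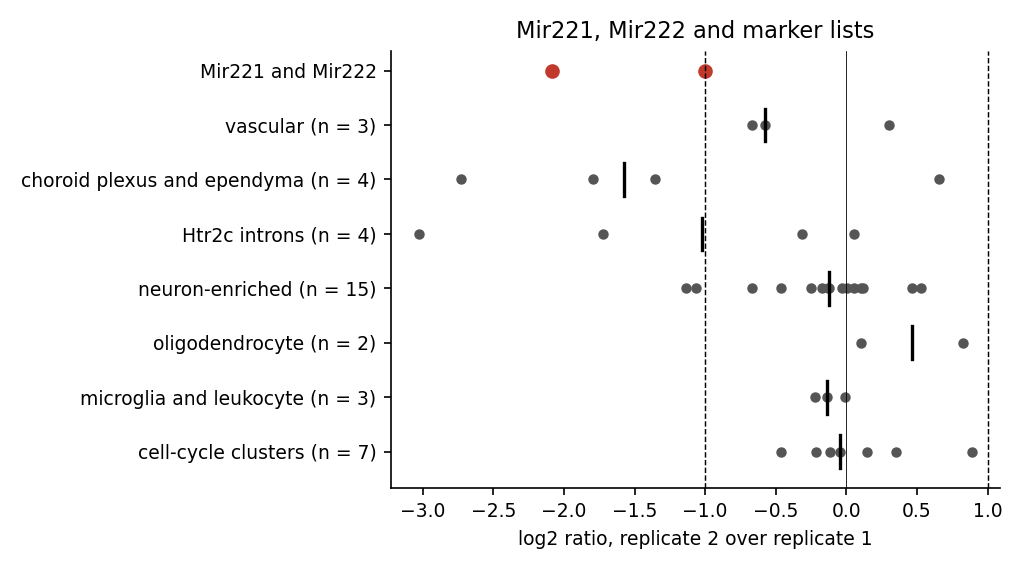
Log2 ratio of replicate 2 over replicate 1 for Mir221 and Mir222 (red) and for the genes of each marker list that averaged at least 100 counts (grey points, n in brackets). Vertical bars are list medians and dashed lines mark 2-fold. The choroid plexus and ependyma list (median −1.57) and the Htr2c list (median −1.02) lie lowest, and the vascular list has a median of −0.58.

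Other X-linked genes were described in the same way. Of the other 140 annotated miRNA genes on this chromosome, 25 had a mean of at least 100 counts. Their median log2 ratio was 0.01 (−0.061 with TMM scaling and −0.064 with DESeq2 size factors). Of the 25 genes, 2 lay past 2-fold lower in replicate 2 and 0 past 2-fold higher, beside 5.43% and 5.07% of all 276 genes. Those 2 were Mir1264 and Mir1298 of Htr2c. Their ratios ranged over the 25 genes from −3.03 to 0.93.

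The libraries held 12627039 reads in replicate 2 and 11106392 in replicate 1, of which 5041568 and 4247092 were counted on miRNA genes. Reads aligned to several places made up 45.7% in replicate 2 and 43.8% in replicate 1, and unaligned reads 11.4% and 15.1%. Per the labels, adapter trimming followed different protocol versions in the 2 libraries, so trimming and library cannot be told apart. With 1 library of each, no difference between them has a replicate check.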

How the data were processed

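The authors deposited raw read counts per annotated miRNA gene, not normalised, 1 table for each library with 3 columns of counts. Per the deposited file notes, the tables use mm10 and GENCODE M21. No aligner or counting tool is given in the sources used here. The second of these columns (counts on the strand of the gene, judged from the column sums) was used. Library sizes leave out the 4 summary rows. All 2202 gene IDs matched M21, and 1018 gene names matched a mature sequence in the RefSeq table. Log2 ratios set replicate 2 over replicate 1 after adding 0.5 counts to each, and their intervals are exact 95% binomial (Clopper-Pearson). No test was run, because the members were chosen for this difference and edgeR's quasi-likelihood test cannot be fitted to 1 library against 1. edgeR and DESeq2 gave alternative scalings only. The procedure was tested on simulated data that held counting error only, so that test does not cover further spread between libraries. Named genes were the members, genes of the same seed, the nearest miRNA genes and the 5 nearest to the mean log2 ratio of the members. The 5 other pairs of highest level and the 2 highest genes of each list were named as well. All members of a list of 5 or fewer could also be named. Others are said to have been named after their values were seen, or complete the account of a list. The members and the 9 lists were chosen with earlier results of these data known. Mir1911 matched no gene. Tools were Python 3.11.15, numpy 2.4.6, pandas 2.3.3, scipy 1.17.1, matplotlib 3.10.9, R 4.3.3, edgeR 4.0.16 and DESeq2 1.42.0.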

Additional observations from a re-analysis of the deposited data

How the results depend on the processing

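Mir222 kept a log2 ratio past 4-fold under all 8 alternatives to the scaling, strand column and added count (−2.16 to −2.02), and Mir221 kept its sign (−1.08 to −0.94) but not its side of 2-fold. With all reads as denominator the log2 ratios were −0.94 for Mir221, −2.02 for Mir222 and −1.17 for the sum. With TMM they were −1.07, −2.16 and −1.30, and with DESeq2 size factors −1.08, −2.16 and −1.30. Mir221 was also short of 2-fold with counts without regard to strand (−0.99), where the library totals differ, and without the 10 highest genes in the denominator (−0.99). By construction another denominator moves the level. Scaled to all reads, Mir221 averaged 3817 CPM and the sum 4995 CPM. Without the 10 highest genes, Mir221 averaged 22986 CPM, Mir222 7135 CPM and the sum 30120 CPM. Leaving out each replicate gave 6552 to 13121 CPM for Mir221, 1164 to 4948 CPM for Mir222, 7716 to 18068 CPM for the sum, and 1.41 to 2.49 for log2 of Mir221 over Mir222. The count of genes past 2-fold, 29 of 276 (10.5%), became 31 with TMM and with DESeq2 size factors (17 lower and 14 higher), 60 of 450 (13.3%) at a mean of 10 counts, 15 of 163 (9.20%) at 1000 counts and 256 of 799 (32.0%) with no minimum. Past 4-fold lay 6 of the 276. The median gap of the other pairs was 0.41 at 1 kb, 0.39 at 50 kb and 0.36 at a mean of 1000 counts. The X-linked median turned to −0.061 with TMM and to −0.064 with DESeq2 size factors, and the other list medians kept their sign under both. The marker lists held 7 genes past 2-fold under each scaling. No paired analysis was possible because the 2 libraries form 1 group. Among reads aligned to 1 place, depth limits only low genes, where a count of 0 allows 0.595 CPM in replicate 2 and 0.706 CPM in replicate 1. For a mature sequence shared between loci, a count of 0 sets no limit on the level of the miRNA.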

Other observations

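Of the 15 genes past 2-fold lower in replicate 2, Mir26a-1 lay lowest, at a log2 ratio of −5.24 (19 counts in replicate 2 and 622 in replicate 1). Mir26a-1 and Mir26a-2 give the same mature miRNA, and both counts cover only reads that aligned to 1 place. Mir135b (−1.28) and Mir496a (−1.09) completed the 15 besides those already named. Just short of 2-fold lay Mir26a-2 (−0.99), next to Mir221 in the order, and Mir21a (−0.95), a miRNA of proliferating and reactive cells, with 401 CPM in replicate 2 and 774 CPM in replicate 1. These genes are given as values and were named after their values were seen.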
